A study of Mus musculus with 4 samples.

Results

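Fabp4, Adipoq, Plin1, Cidec, Cfd, Ucp1, Retn and Pparg are 8 genes known chiefly from adipocytes, and they were read here in single-cell RNA libraries made from mouse aorta. They were taken by symbol, 8 of 32285 genes in the count matrices. No cutoff on their values was used, but earlier results of these data were known when they were chosen. The 4 libraries came from 4 groups, 1 library each: normal diet with the genotype WT, normal diet with LysM-DKO, western diet with WT/ApoE-/- and western diet with LysM-DKO/ApoE-/-. Aortas were flushed with buffer, cut up, digested with collagenases and liberase, and loaded on a 10x Genomics droplet kit that counts 3′ ends of transcripts by unique molecular identifiers (UMIs). The series concerns epsins in atheroma, and LysM is the name of a myeloid promoter, but the labels used here do not spell out which genes are missing in the DKO, the age, the sex, the number of animals pooled in a library or the length of the diet. Values below are given for the libraries in the order of the groups above. With 1 library per group no difference between groups has a replicate check and no p-value was computed; intervals are 95% intervals for counting error only.

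The outer wall of the aorta lies in perivascular fat, which in the mouse holds white and brown adipocytes together with its own fibroblasts, macrophages and capillaries. Adipocytes store triglyceride in droplets coated by perilipin 1 (Plin1) and enlarged by CIDEC, secrete adiponectin (Adipoq), complement factor D (Cfd, adipsin) and resistin (Retn), and depend on the nuclear receptor PPARG; brown adipocytes burn fuel through the uncoupling protein UCP1. FABP4 carries fatty acids in adipocytes, and it is also a well-known product of capillary endothelium and of macrophages, while PPARG acts in both of those cell types as well. Mature adipocytes float and break in a digest, so their RNA can enter a library through whole cells, through droplets that also hold another cell, or as free RNA in every droplet. The question for each gene was therefore in which cell barcodes its UMIs lay, and how far its level there exceeded that of cells not known to make it.

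The genes were counted on GRCm38 (mm10). Fabp4 (ENSMUSG00000062515) lies at chr3:10204088-10208576 on the minus strand, Adipoq (ENSMUSG00000022878) at chr16:23146536-23158028 on the plus strand, Plin1 (ENSMUSG00000030546) at chr7:79720218-79732903 on the minus strand and Cidec (ENSMUSG00000030278) at chr6:113424634-113435760 on the minus strand. Cfd (ENSMUSG00000061780) lies at chr10:79890853-79892655, Ucp1 (ENSMUSG00000031710) at chr8:83290352-83298452, Retn (ENSMUSG00000012705) at chr8:3655770-3660110 and Pparg (ENSMUSG00000000440) at chr6:115360951-115490399, all on the plus strand. All 8 are protein-coding, and only Pparg overlaps another annotated gene, the antisense Gm44079, whose reads could be told apart only by strand.

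Promoters are shown because several of the genes moved together between libraries. RefSeq windows from 250 bases before to 50 bases after a start site (GRCm38.p6) were held for 7 of the 8 genes. They were searched on both strands for the direct repeat bound by PPAR dimers, AGGNCANAGGNCA, and for a C/EBP-like pattern, TTGCNNAA, which was narrowed from a looser pattern after that had been tried; C/EBP factors act with PPARG in fat cells. The windows of Adipoq (chr16:23146286-23146585, plus strand), Plin1 (chr7:79732727-79733026, minus strand) and 1 of 3 Pparg starts (chr6:115421816-115422115, plus strand) read as follows, 5′ to 3′, with C/EBP-like matches in capitals:
Adipoq: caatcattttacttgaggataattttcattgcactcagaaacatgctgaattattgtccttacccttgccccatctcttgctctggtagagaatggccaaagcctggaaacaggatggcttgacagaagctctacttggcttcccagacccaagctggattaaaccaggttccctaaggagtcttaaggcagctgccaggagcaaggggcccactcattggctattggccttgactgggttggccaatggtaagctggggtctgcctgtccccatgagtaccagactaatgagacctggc
Plin1: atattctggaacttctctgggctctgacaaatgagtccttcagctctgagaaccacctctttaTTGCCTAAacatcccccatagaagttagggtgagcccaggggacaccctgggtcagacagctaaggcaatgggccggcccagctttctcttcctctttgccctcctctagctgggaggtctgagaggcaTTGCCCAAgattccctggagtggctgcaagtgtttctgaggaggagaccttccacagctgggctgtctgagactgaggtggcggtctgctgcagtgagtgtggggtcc
Pparg: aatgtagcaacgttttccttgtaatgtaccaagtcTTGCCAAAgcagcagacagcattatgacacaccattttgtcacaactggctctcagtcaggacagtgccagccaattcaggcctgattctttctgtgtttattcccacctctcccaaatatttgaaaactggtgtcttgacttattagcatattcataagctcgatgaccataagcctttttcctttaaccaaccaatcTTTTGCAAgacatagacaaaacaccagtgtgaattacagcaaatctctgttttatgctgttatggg
The Plin1 window held matches at -187 to -180 and -58 to -51 from the start site, the Pparg window at -215 to -208 and, on the opposite strand, -16 to -9, and 1 of 2 windows of Cidec held 1 match. The printed Pparg window is the only one of its 3 with a match, and Adipoq, Cfd, Retn and Ucp1 had none, so that 3 of 10 windows matched. The C/EBP-like pattern is found in 10.8% of all 32851 windows. The PPAR repeat was in no window of these genes and in 125 of all windows (0.381%). These are matches of letters and say nothing of binding.

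A barcode was kept if it had 1000 UMIs or more, no more than 10% of them mitochondrial; this left 7758, 8230, 13744 and 8133 per library, with medians of 4167, 3404, 2103 and 6761 UMIs. Each was placed by the first rule it met: macrophage (C1qa, C1qb and C1qc, 5 UMIs or more), B cell (Cd79a and Ms4a1, 2), endothelial (Pecam1 and Cdh5, 2), fibroblast (Pdgfra and Serpinf1, 3) or smooth muscle (Myh11 and Cnn1, 3); T cells were then taken from the unclassified by Cd3d, Cd3e and Cd3g (2). In every library 5 of 5 further markers of each of the 5 rule classes were at least 2-fold above the rest. For T cells the 5 markers included Cd3d, Cd3e and Cd3g, which define the class, so their result was fixed by the rule. Between 7.40% and 23.1% of kept barcodes met at least 2 rules, and 9 to 41 kept barcodes were shared by a pair of libraries. Apoe fell from 549 and 946 CPM (counts of a gene per 1000000 UMIs) in the normal-diet libraries to 4.47 and 1.92 in the ApoE-/- libraries, in keeping with their labels. Diet went together with the ApoE genotype, with the sex read from the RNA (Xist at 950 CPM in both normal-diet libraries and under 1 CPM in both western-diet libraries) and with the software version in the file headers, so these cannot be told apart.

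Few UMIs came from the genes that mark mature adipocytes most narrowly. In kept barcodes Adipoq had 24, 107, 4 and 13 UMIs, or 0.589, 2.83, 0.0749 and 0.228 CPM. Plin1 had 2, 35, 2 and 2 UMIs, and Cidec 9, 67, 5 and 1. All 3 were highest in the LysM-DKO normal-diet library, and in no other library did any of them pass 24 UMIs among 7758 to 13744 barcodes. In summed libraries, fewer cells of a type and less RNA per cell cannot be told apart.

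Summed over Adipoq, Plin1 and Cidec, a barcode held 3 or more UMIs only in the LysM-DKO normal-diet library, where 10 of 8230 kept barcodes did so (0.122%, exact binomial interval 0.0583 to 0.223). None did in the other 3 libraries, which allows shares of up to 0.0387%, 0.0218% and 0.0369%. Just under the threshold lay 88 barcodes with 1 or 2 such UMIs in the LysM-DKO normal-diet library and 34, 11 and 16 in the others. By the class rules the 10 were 3 endothelial, 3 smooth muscle, 2 fibroblast, 1 macrophage and 1 unclassified, so adipocyte UMIs were spread over barcodes of several classes. The 3 richest stood apart from the other 7, which had 3 or 4 such UMIs each. The richest, a fibroblast by rule, had 25436 UMIs, among them 785 of Fabp4, 25 of Adipoq, 10 of Plin1 and 16 of Cidec, and 263 of Car3, a carbonic anhydrase abundant in adipocytes. Another, smooth muscle by rule, had 14590 UMIs with 329 of Cfd, 364 of Fabp4 and 21 of Adipoq but none of Plin1 or Cidec. The remaining barcode of the 3, also smooth muscle by rule, had 24041 UMIs with 240 of Fabp4, 10 of Adipoq, 6 of Plin1, 2 of Cidec and 245 of Car3, beside 10 of Myh11 and 7 of Cnn1.

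**Figure D1:**
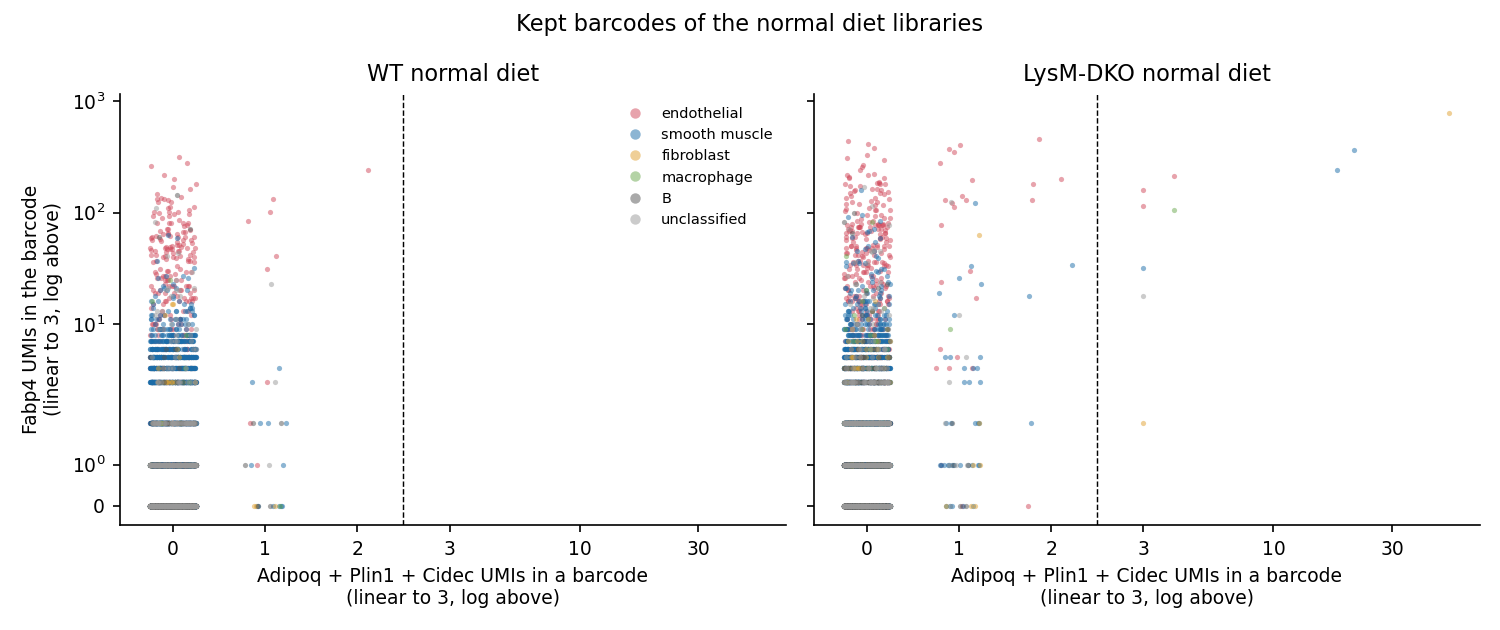
UMIs of Adipoq, Plin1 and Cidec summed per kept barcode (horizontal) against Fabp4 UMIs (vertical) in the WT and LysM-DKO normal-diet libraries. The dashed line sets off barcodes with 3 UMIs or more, and points below 3 are spread sideways so that they can be seen. The barcodes past the line are the 10 of the LysM-DKO normal-diet library, and none of the WT normal-diet library passes it. The western-diet libraries are not drawn.

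Those 10 barcodes held 62 of 107 Adipoq UMIs (57.9%), 24 of 35 of Plin1 (68.6%) and 27 of 67 of Cidec (40.3%), the genes by which they were chosen, so that these shares only describe the choice. Of the genes not used to choose them they held 386 of 747 Cfd UMIs (51.7%), 20 of 90 for Retn (22.2%), 2035 of 36627 for Fabp4 (5.56%), 7 of 328 for Pparg (2.13%) and 2 of 207 for Ucp1 (0.966%). Other adipocyte genes, which did not enter the choice of these barcodes, were read in them as a description of the same cells. Of 21 measured, 20 were at least 2-fold higher than in the remaining barcodes, with a median log2 ratio of 3.58, beside 39.7% higher and a median of 0.62 over all 15947 genes. These are pooled sums, and the 3 richest barcodes held 263, 151 and 245 UMIs of Car3. By contrast 1 smooth muscle, 1 fibroblast and the unclassified barcode had no UMI of Car3, Cfd or Cd36. They held 32, 2 and 18 of Fabp4 and 3, 29 and 5 of Lpl, so the 10 did not share 1 profile. Car3 had 770 UMIs in the 10 barcodes and 307 in the rest of the library, Gpd1 86 and 161, Scd1 184 and 3549, and Lpl, lipoprotein lipase, 199 and 2853. Lep, the leptin gene, had 2 UMIs in all 4 libraries. Of 12 genes of brown fat 8 were higher there, among them Cox7a1 with 16 UMIs against 49, and 2 were lower, Fabp3 and Prdm16, while Ucp1 itself had 2 UMIs.

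Cfd had 34, 747, 1 and 2 UMIs in kept barcodes, or 0.834, 19.8, 0.0187 and 0.0352 CPM. In the LysM-DKO normal-diet library its UMIs lay in every class. Smooth muscle held 478 UMIs, of which 329 were in 1 barcode, and macrophages held 34, of which 22 were in 1 barcode. Endothelial barcodes held 135 UMIs (25.4 CPM, 21.3 to 30.0), more evenly spread. Lymphocytes, which are not known to make adipsin, held 47 UMIs (7.66 CPM, 5.63 to 10.2), with at most 2 in a barcode and a UMI in 3.39% of barcodes. Fibroblasts were at 5.68 CPM (3.52 to 8.68), not above the lymphocytes. In the WT normal-diet library 24 of 34 UMIs were endothelial and 1 was in a lymphocyte. The same evenly spread low level beside a few very high barcodes was seen for Retn, with 16, 90, 3 and 0 UMIs: in the LysM-DKO normal-diet library 32 were endothelial (6.01 CPM), 15 in lymphocytes (2.45 CPM) and 14 in macrophages, 10 of these in 1 barcode that also had 22 of Cfd and 4 of Cidec.

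Fabp4 had 18841, 36627, 15114 and 15361 UMIs in kept barcodes, most of them in endothelial and smooth muscle barcodes. Endothelial barcodes stood at 2016 CPM (1978 to 2055), 4133 (4079 to 4188), 608 (582 to 634) and 837 (807 to 867). Smooth muscle stood at 241, 487, 304 and 244 CPM, macrophages at 195, 471, 227 and 194, fibroblasts at 90.0, 411, 144 and 49.7, and lymphocytes at 153, 223, 69.5 and 21.2. Endothelium was the highest class in all 4 libraries, with smooth muscle next and then macrophages. Smooth muscle and macrophages did not differ beyond counting error on normal diet and did on western diet. In the WT normal-diet library macrophages and lymphocytes also overlapped and fibroblasts lay below both. Lymphocytes there that met 1 rule or were T cells stood at 82.5 CPM (70.5 to 96.0), not above fibroblasts. Elsewhere lymphocytes were lowest. The lymphocyte value of the last library rests on 2 UMIs in 33 barcodes (2.57 to 76.5 CPM), so folds over it are wide.

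**Figure D2:**
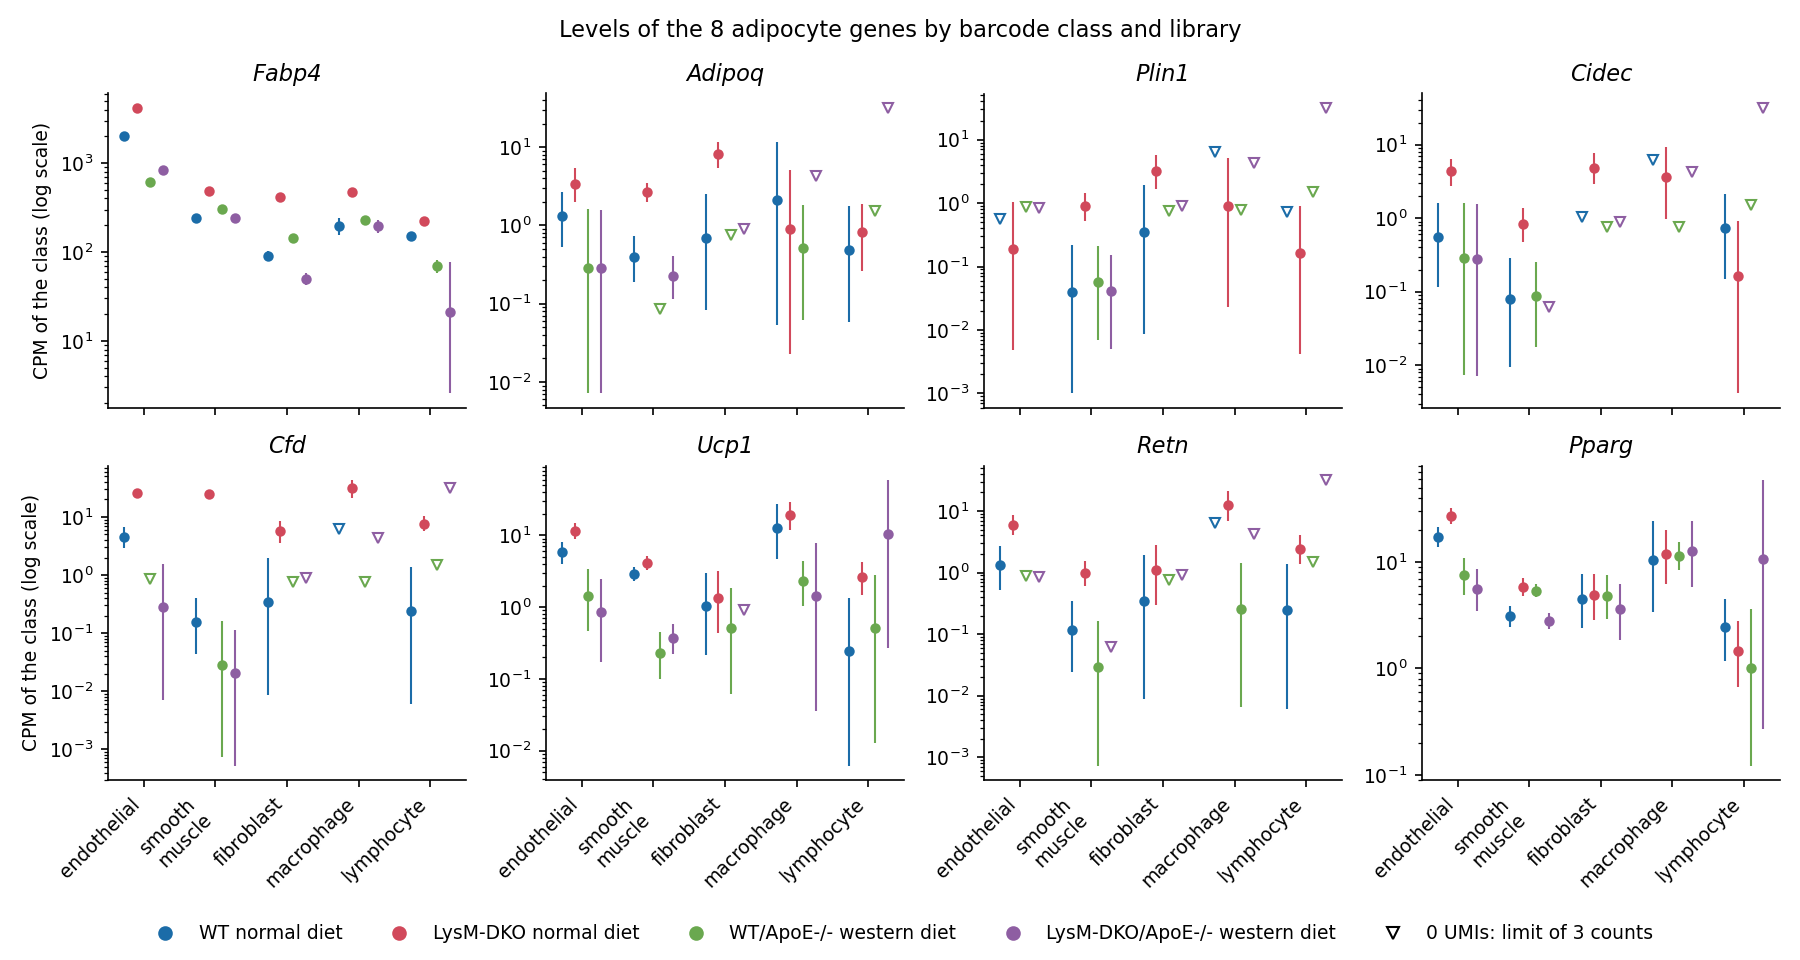
Level of each gene in CPM (log axis) in endothelial, smooth muscle, fibroblast, macrophage and lymphocyte barcodes of the 4 libraries; bars are 95% Poisson intervals and open triangles stand at the limit that 0 UMIs allow (3 counts). Fabp4 is highest in endothelium in all 4 libraries. Adipoq, Plin1, Cidec and Retn rest on few UMIs in each class outside the LysM-DKO normal-diet library. So does Cfd, except in WT normal-diet endothelium (24 UMIs, 4.47 CPM).

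The share of barcodes with a Fabp4 UMI was also set against that in lymphocytes, as the measure of free RNA. It was 67.9%, 77.9%, 64.9% and 57.1% in endothelium against 26.3%, 50.4%, 6.98% and 6.06% in lymphocytes. After thinning each barcode to 1000 UMIs it was 35.8%, 49.5%, 25.2% and 20.6% in endothelium and 9.12%, 18.5%, 3.6% and 2.83% in lymphocytes. The endothelial level was 13.2-fold (12.2 to 14.3), 18.6-fold (17.6 to 19.6), 8.74-fold (7.35 to 10.5) and 39.5-fold (10.9 to 326) that of lymphocytes. On the log2 scale these are 3.72, 4.21, 3.12 and 4.98, and the first 3 were 6.37, 5.83 and 6.21 without barcodes that met at least 2 rules. If every endothelial barcode carried the lymphocytes' UMIs per barcode, that would be 4.30%, 4.36%, 3.38% and 0.851% of the class's Fabp4. The same reckoning gave 40.7%, 44.3%, 14.8% and 3.42% in smooth muscle and 147%, 52.3%, 19.7% and 24.0% in fibroblasts. The fibroblast level relative to lymphocytes had no clear direction without barcodes that met at least 2 rules in the WT normal-diet library (log2 ratio 0.07, -0.27 to 0.41). It turned in direction without the adipocyte-rich barcodes in the LysM-DKO one (-0.16, -0.29 to -0.03). Lymphocytes are not free of other cells themselves. Those that met 1 rule or were T cells stood at 82.5, 194 and 23.6 CPM in the first 3 libraries, and those that met at least 2 rules at 222, 236 and 243. The latter were 489 of 1040 and 776 of 1299 lymphocytes on normal diet. In the WT normal-diet library 3 lymphocyte barcodes held 43.7% of the class's Fabp4. Folds and shares against that reference thus rest partly on few droplets.

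Within endothelium Fabp4 followed the capillary genes. Endothelial barcodes with at least 2 UMIs over 9 genes of capillary endothelium, among them Gpihbp1, which anchors lipoprotein lipase, were 44.3%, 48.3%, 53.6% and 40.1% of the class. They are called capillary barcodes below, but 2 of the 9 genes, Aqp1 and Timp4, were not confined to endothelium. In the WT/ApoE-/- western-diet library Aqp1 stood at 315 CPM in endothelium, 156 in smooth muscle and 178 in fibroblasts. Timp4 stood at 52.4 in endothelium and 43.8 in smooth muscle there, and endothelial Gpihbp1 at 16.5, so the rule does not mark capillary cells alone. The Fabp4 level of capillary barcodes was 4285, 8242, 731 and 1510 CPM, against 317, 514, 358 and 250 in the remaining endothelial barcodes, with no overlap of counting intervals in any library. The share of barcodes with a Fabp4 UMI was higher in capillary barcodes in the first 3 libraries (77.4% against 60.3%, 88.7% against 67.8% and 70.1% against 59.0%) and lower in the LysM-DKO/ApoE-/- western-diet library (52.7% against 60.0%). In that library 8 of 417 endothelial barcodes, each with 100 Fabp4 UMIs or more, held 71.5% of the class's Fabp4, so its level was set by few barcodes. Endothelial barcodes that met no other class rule, 147, 258, 71 and 51 of them, reached 6859, 11085, 1772 and 5575 CPM, and those that met at least 2 rules, 71.7% to 87.8% of the class, 1470, 2762, 454 and 418. The highest barcodes held 317, 464, 193 and 648 UMIs.

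**Figure D3:**
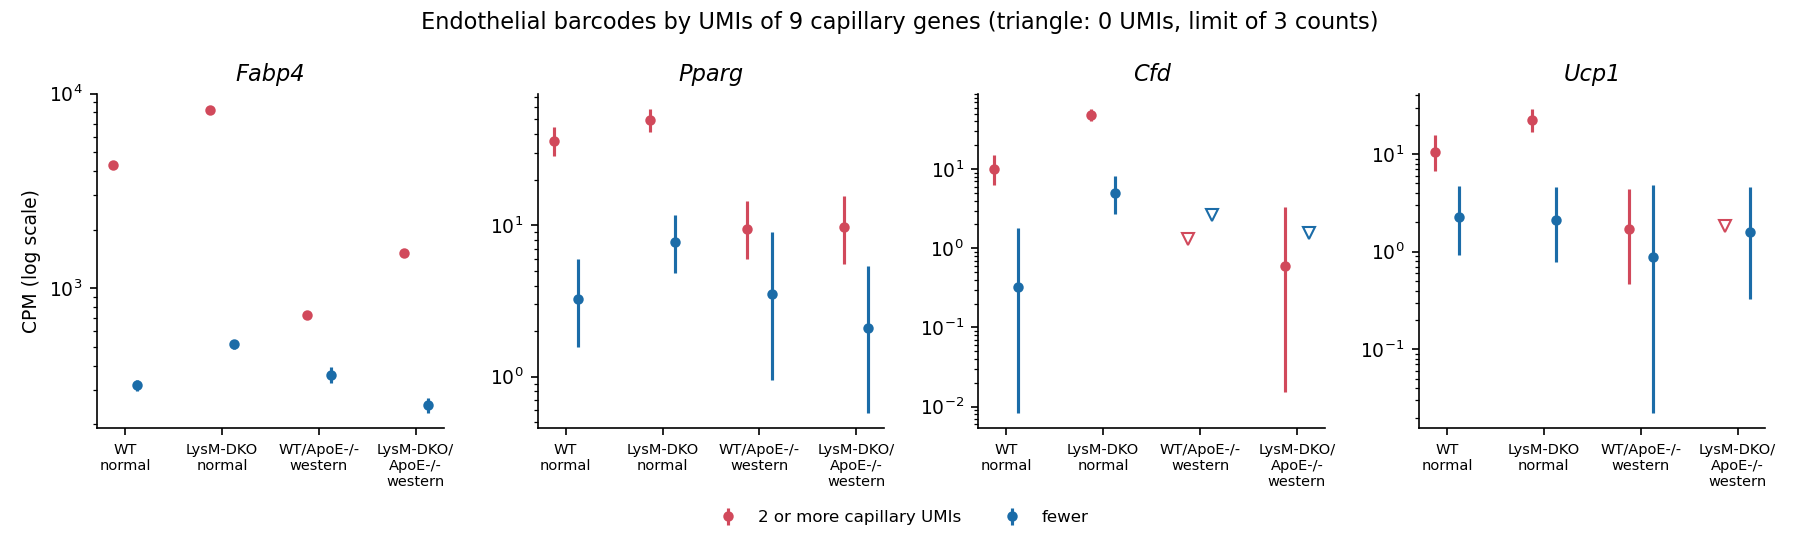
Level of Fabp4, Pparg, Cfd and Ucp1 in CPM (log axis) in endothelial barcodes with at least 2 UMIs of 9 capillary genes and in those with fewer, for each library; bars are 95% Poisson intervals and triangles mark 0 UMIs at the limit of 3 counts. Fabp4 is higher in the capillary barcodes of all 4 libraries, for instance 4285 against 317 CPM in the WT normal-diet library.

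Per UMI of Adipoq, Plin1 or Cidec, endothelium outside the 10 adipocyte-rich barcodes held 1082 (588 to 2256), 672 (476 to 983), 1050 and 1486 Fabp4 UMIs, and smooth muscle 469, 205, 2104 and 907. The endothelial ratios on western diet rest on 2 such UMIs each. Lymphocytes held 126 (53.6 to 389) and 195 (94.4 to 486) in the normal-diet libraries; the interval was separate from that of endothelium in the WT library and overlapped it in the LysM-DKO one. The 10 rich barcodes held 18, but they were chosen by the denominator of this ratio, which fixes a low value, and no share of Fabp4 was derived from it.

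Pparg had 218, 328, 302 and 181 UMIs, or 5.35, 8.68, 5.65 and 3.18 CPM. Endothelium stood at 17.3 CPM (14.0 to 21.2), 27.2 (23.0 to 32.1), 7.52 (4.91 to 11.0) and 5.63 (3.44 to 8.70), and macrophages at 10.5 (3.40 to 24.4), 11.8 (6.29 to 20.2), 11.5 (8.39 to 15.4) and 12.8 (5.86 to 24.3). Endothelium was above macrophages in both normal-diet libraries and below them in both western-diet libraries; the intervals were separate only in the LysM-DKO normal-diet library. The macrophage level differed between libraries by less than its counting error. Smooth muscle lay between 2.82 and 5.83 CPM, fibroblasts between 3.6 and 4.87, and lymphocytes at 2.43, 1.47, 1.01 and, from 1 UMI, 10.6. Capillary barcodes held more Pparg than the other endothelial ones, 36.1 against 3.26 CPM, 49.3 against 7.77, 9.50 against 3.50 and 9.68 against 2.11; in the WT/ApoE-/- library the counting intervals overlapped. On normal diet the same barcodes also held more Cfd, 10.0 against 0.326 and 48.5 against 4.95 CPM, and more Ucp1, 10.5 against 2.28 and 22.5 against 2.12 CPM.

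Ucp1 had 127, 207, 27 and 23 UMIs, or 3.12, 5.48, 0.505 and 0.404 CPM. Of the 10 adipocyte-rich barcodes, which Ucp1 did not help to choose, 2 held a Ucp1 UMI. Over the class sums Ucp1 was at rank 9 among the genes most like Cfd (Pearson's r 0.73). Macrophages stood highest in the normal-diet libraries, at 12.6 CPM (4.61 to 27.4) from 6 UMIs and 19.1 CPM (11.8 to 29.2) from 21, followed by endothelium at 5.78 and 11.7 and smooth muscle at 2.92 and 4.15. The macrophage and endothelial intervals overlapped in both. Lymphocytes had 1 and 16 UMIs, 0.243 and 2.61 CPM. The highest barcode, unclassified and in the LysM-DKO normal-diet library, held 11 Ucp1 UMIs of 3616, with 126 of Fabp4, 3 of Cidea and 4 of Cox8b, both genes of brown adipocytes, 9 of Gpihbp1 and none of Adipoq. Brown-fat genes did not share 1 pattern: Cox8b, a subunit of the respiratory chain, had 77, 118, 4 and 3 UMIs, while Cidea had 188, 198, 354 and 705 and was highest where Ucp1 was lowest, at 13.7 CPM in smooth muscle of the last library.

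Members were next counted as higher than lymphocytes where both their CPM and their UMIs per barcode were at least 2-fold above, among genes with 20 UMIs or more in the pair; a reference of 0 was set to 3 counts. In endothelium these were 4 of 4 measured members in the WT normal-diet library (Fabp4, Cfd, Ucp1 and Pparg), beside 31.8% of all genes, and 7 of 7 in the LysM-DKO normal-diet library (all but Plin1), beside 27.5%. In the western-diet libraries they were 2 of 2 (Fabp4 and Pparg, all genes 30.9%) and 1 of 2 (Fabp4, 16.7%). Cfd, Ucp1 and Pparg had 24, 31 and 93 endothelial UMIs in the WT normal-diet library against 1, 1 and 10 in lymphocytes, folds of 18.4 (3.0 to 757), 23.8 (3.96 to 969) and 7.13 (3.71 to 15.4). Without barcodes that met at least 2 rules the members counted fell from 4 to 2 in that library and from 2 to 1 in the WT/ApoE-/- one. Cfd, Ucp1 and Pparg in the WT normal-diet library reached 20 UMIs only through endothelium. In the LysM-DKO one so did Cidec (23 against 1), Adipoq (18 against 5), Retn (32 against 15), Ucp1 (62 against 16) and Pparg (145 against 9). On western diet the same held for Pparg in WT/ApoE-/- (26 against 2) and Fabp4 in LysM-DKO/ApoE-/- (2971 against 2). Their count was thus largely fixed by the minimum and supports nothing. Members that could not be measured are not shown to be absent.

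In the other classes fewer members were above lymphocytes on normal diet, and as many as in endothelium on western diet. These counts depend on how many members reached 20 UMIs in each pair. Smooth muscle had 1 of 3 in the WT normal-diet library (Ucp1, all genes 28.9%), 4 of 6 in the LysM-DKO normal-diet library (Fabp4, Adipoq, Cfd and Pparg, 25.8%), 2 of 2 in the WT/ApoE-/- western-diet library (Fabp4 and Pparg, 27.4%) and 1 of 2 in the last (Fabp4, 11.3%). Fibroblasts had 0 of 2 (24.9%), 2 of 5 (Adipoq and Pparg, 22.7%), 2 of 2 (Fabp4 and Pparg, 29.8%) and 1 of 1 (Fabp4, 17%). Macrophages had 0 of 1 (Fabp4, 14.1%), 5 of 5 (Fabp4, Cfd, Ucp1, Retn and Pparg, 12.3%), 2 of 2 (Fabp4 and Pparg, 20.5%) and 1 of 1 (Fabp4, 22.2%). Several members reached 20 UMIs only through the class, as did Ucp1 in smooth muscle of the WT normal-diet library (74 against 1 in lymphocytes). So did Pparg in smooth muscle (187 against 2) and macrophages (45 against 2) of the WT/ApoE-/- library. Adipoq in smooth muscle (51 against 5) and fibroblasts (30 against 5) of the LysM-DKO normal-diet library did too. The same held for Pparg in smooth muscle there (111 against 9) and for Fabp4 in each of these classes of the last library. Such counts were largely fixed by the minimum and support nothing. In the LysM-DKO normal-diet library several of the members counted rested on the adipocyte-rich barcodes. Without them smooth muscle went from 4 to 2 members (Fabp4 and Pparg), with log2 ratios over lymphocytes of 0.01 for Cfd and 0.27 for Adipoq. Adipoq had served to choose these barcodes, so its ratio could only fall. Macrophages went from 5 to 2 (Ucp1 and Pparg) on leaving out 1 barcode that met 3 class rules, with 0.56 for Cfd, 0.70 for Retn and 0.76 for Fabp4. Fibroblasts went from 2 to 1 (Pparg), and 26 of 30 of their Adipoq UMIs had lain in 2 such barcodes. Endothelium went from 7 to 5, as Adipoq and Cidec no longer reached 20 UMIs. Fabp4 in macrophages was 1.27-fold (1.01 to 1.59), 2.12-fold (1.91 to 2.34), 3.26-fold (2.72 to 3.93) and 9.15-fold (2.48 to 76.3) the lymphocyte level. As a gauge of free RNA, lymphocytes held 22.5%, 23.4%, 13.8% and 11.5% of the smooth muscle level of Acta2, the main actin of that muscle. For Cldn5, an endothelial junction gene outside the rule, they held 3.47%, 3.77% and 2.62% of the endothelial level, with no UMI in the lymphocytes of the last library. Pecam1, a gene of the class rule, was at 8.14%, 7.95%, 17.2% and 3.17%, but it does not gauge free RNA alone. In the WT/ApoE-/- library lymphocytes stood at 74.6 CPM of Pecam1, above smooth muscle (23.3), macrophages (20.5) and fibroblasts (19.2). How much of it was their own RNA was not tested.

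On normal diet all 8 genes were higher in the LysM-DKO than in the WT library. Over all kept barcodes the log2 ratio was 4.55 for Cfd (4.07 to 5.11), 3.94 for Plin1 (2.28 to 7.34, on 35 and 2 UMIs), 2.94 for Cidec (1.99 to 4.2), 2.56 for Retn (1.82 to 3.47) and 2.24 for Adipoq (1.62 to 2.97). It was smaller for Fabp4 at 1.07 (1.04 to 1.09), Ucp1 at 0.81 (0.49 to 1.14) and Pparg at 0.70 (0.45 to 0.95). By CPM 6 of 8 were at least 2-fold higher (all but Ucp1 and Pparg), beside 6.13% of all genes, and 0 of 8 were 2-fold lower, beside 1.07%. Plin1 (35 against 2), Cidec (67 against 9) and Retn (90 against 16) reached the minimum number of UMIs only through the LysM-DKO library. Their part of this count was thus largely fixed by the minimum. Fabp4, Adipoq and Cfd reached it in both libraries. Counted per barcode the Fabp4 ratio was 0.87, under 2-fold. The members share barcodes, so these are not independent counts.

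Without the 10 adipocyte-rich barcodes 4 of the 8 stayed at least 2-fold higher with 20 UMIs or more (Adipoq, Cidec, Cfd and Retn), and the log2 ratio was 3.50 for Cfd, 2.31 for Plin1, 2.20 for Cidec, 2.21 for Retn and 1.01 for Adipoq (0.27 to 1.80), and the sum of Adipoq, Plin1 and Cidec went from 2.67 to 1.56 (1.0 to 2.17). The removed barcodes were chosen by Adipoq, Plin1 and Cidec and lay only in the LysM-DKO library. The ratios of these genes and of their sum could therefore only fall. Cidec (40 against 9) and Retn (70 against 16) again reached 20 UMIs only through that library. Fabp4, Ucp1 and Pparg moved little, to 0.99, which is just under 2-fold, 0.80 and 0.67. Within endothelium the ratio for Fabp4 was 1.04 (1.0 to 1.07), on 22006 and 10816 UMIs, and within smooth muscle 1.01 (0.97 to 1.06). Lymphocytes of the 2 libraries stood at 223 and 153 CPM of Fabp4, and endothelial barcodes that met no other rule were 28.3% and 19.1% of the class. The part of free RNA, of doublets and of the amount of fat left on the aorta in these ratios was not tested. Among genes fixed in lists with earlier results known, 5 of 21 other adipocyte genes (Adig, Aqp7, Car3, Lpl and Pck1) and 6 of 14 capillary genes (Aqp7, Btnl9, Car4, Cd300lg, Lpl and Rbp7) were at least 2-fold higher by CPM and none lower, beside 6.13% higher and 1.07% lower of all genes, with median log2 ratios of 0.39 and 0.94 against 0.03. Car3 had 1077 UMIs against 137, and Rbp7, a retinol-binding protein of capillary endothelium, 1047 against 355. Of 16 genes of adipose progenitors 5 were higher, with Dlk1, which restrains fat cell formation, at 189 UMIs against 7.

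**Figure D4:**
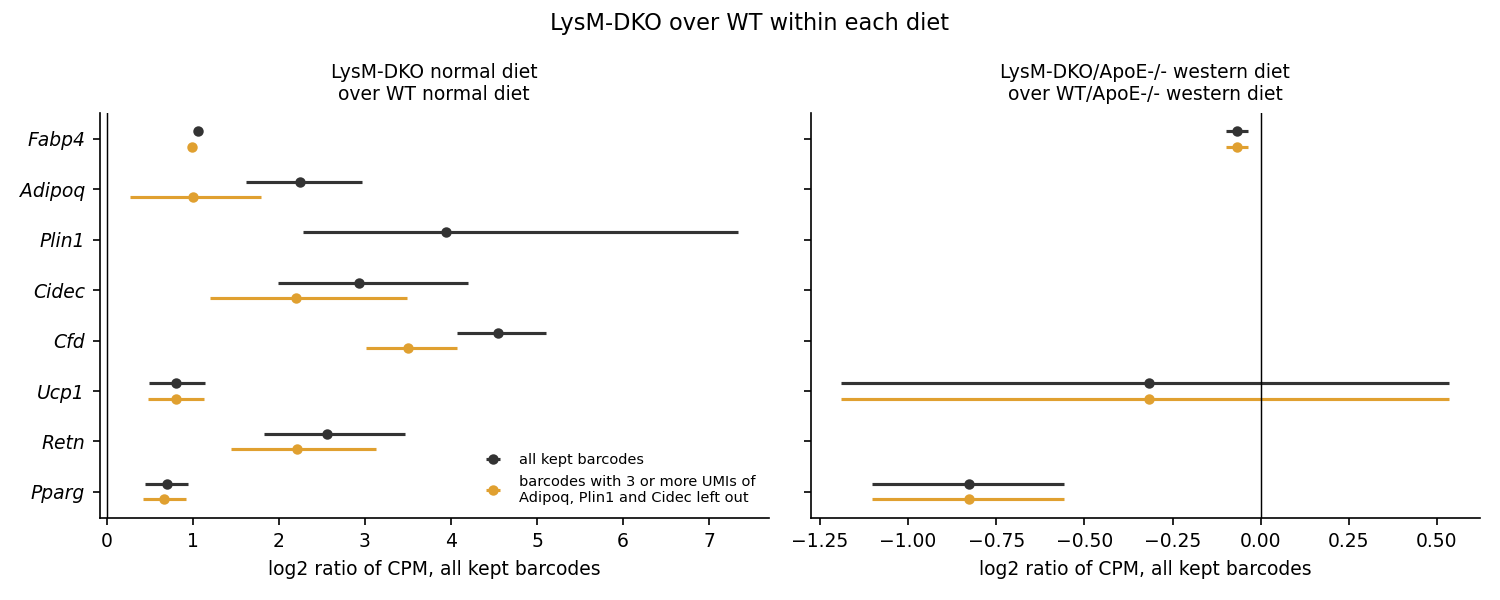
Log2 ratio of LysM-DKO over WT for each gene over all kept barcodes, on normal diet with and without the 10 adipocyte-rich barcodes and on western diet (ApoE-/-); bars are 95% intervals for counting error, the panels have their own horizontal ranges, and genes with fewer than 20 UMIs in the pair are not drawn. On normal diet the ratios run from 0.70 for Pparg to 4.55 for Cfd, and on western diet from -0.83 for Pparg to -0.07 for Fabp4.

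On western diet, in the ApoE-/- libraries, only Fabp4, Ucp1 and Pparg had enough UMIs for the same comparison. Their log2 ratios of LysM-DKO over WT were -0.07 (-0.10 to -0.03), -0.32 (-1.19 to 0.54) and -0.83 (-1.10 to -0.56). Of these 3, 0 were at least 2-fold higher (2.36% of all genes) and 0 were 2-fold lower (11.6%). Within endothelium Fabp4 was higher in the LysM-DKO/ApoE-/- library, at 0.46 (0.38 to 0.54), and within smooth muscle lower, at -0.31 (-0.35 to -0.28). In endothelium 8 of 417 LysM-DKO/ApoE-/- barcodes held 71.5% of the Fabp4 UMIs and 3 of 405 WT/ApoE-/- barcodes held 23.4%, each with 100 or more, while the share of barcodes with a Fabp4 UMI was lower in LysM-DKO/ApoE-/- (57.1% against 64.9%), so the direction rests on these few barcodes. The endothelial value was 1.65 without barcodes that met at least 2 rules and 1.05 in capillary barcodes. Counted per barcode instead of per UMI, the ratio was 0.78 for Fabp4 over all kept barcodes, 0.58 for Fabp4 in smooth muscle and 0.02 (-0.26 to 0.29) for Pparg over all. The directions of Fabp4 thus turn with the scale, and that of Pparg is undetermined per barcode. Macrophage barcodes were 939 in the WT/ApoE-/- and 135 in the LysM-DKO/ApoE-/- library, and medians of UMIs per barcode were 2103 and 6761. Adipoq, Plin1, Cidec, Cfd and Retn had 1 to 5 UMIs each in the WT/ApoE-/- library and 0 to 13 in the LysM-DKO/ApoE-/- library.

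Between diets most of the genes were lower in the western-diet libraries. In WT against WT/ApoE-/-, 3 of 5 measured members were at least 2-fold lower (Adipoq, Cfd and Ucp1, all genes 11.8%) and 0 of 5 higher (6.18%), with log2 ratios of -2.84 for Adipoq (-4.96 to -1.43), -4.91 for Cfd (-10.8 to -2.90, on 1 UMI against 34), -2.60 for Ucp1 (-3.28 to -2.02), -0.71 for Fabp4 and 0.08 for Pparg (-0.18 to 0.34). In LysM-DKO 8 of 8 were 2-fold lower (22.4%) and 0 of 8 higher (3.94%), from -1.45 for Pparg and -1.84 for Fabp4 to -8.81 for Cfd (-12.2 to -7.28). Retn, at 0 of 56888546 UMIs in the last library, was at least 45.2-fold lower. In WT, Adipoq (4 UMIs against 24) and Cfd reached the minimum number of UMIs only through the normal-diet library. In LysM-DKO so did Adipoq (13 against 107), Plin1 (2 against 35), Cidec (1 against 67), Cfd (2 against 747) and Retn (0 against 90). Their calls as 2-fold lower were thus largely fixed by the minimum. Fabp4, Ucp1 and Pparg reached it in both libraries of each pair. Fabp4 in endothelium fell by 1.73 and 2.31 on the log2 scale, whereas in smooth muscle it differed by 0.33 and -1.0, the former -0.33 per barcode. Capillary genes in endothelium were 2-fold lower for 9 of 14 in WT and 12 of 14 in LysM-DKO, beside 8.86% and 9.92% of all genes, with medians of -1.36 and -2.29 (all genes -0.03 and 0.03). Gpihbp1 had 101, 166, 16.5 and 32.7 CPM in endothelium. These contrasts share libraries with those between genotypes, and diet, ApoE genotype, sex and software version cannot be told apart in them.

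The lists fixed around the 8 genes showed where related genes lay. Capillary genes were at least 2-fold above lymphocytes in endothelium for 14 of 14, 14 of 14, 8 of 9 and 8 of 11 measured, PPAR target genes for 9 of 12, 9 of 12, 7 of 11 and 7 of 12, and other adipocyte genes for 11 of 18, 11 of 20, 8 of 16 and 4 of 12, beside 31.4%, 27.3%, 30.2% and 25.6% of all genes by CPM alone. The most abundant adipocyte genes were not specific to fat here. Plin4, a droplet coat protein, stood at 117 to 139 CPM in smooth muscle and at 23.7 to 53.0 in lymphocytes; Acsl1, which activates fatty acids, stood at 94.4 to 128 CPM in smooth muscle; Scd1, a desaturase, was highest in lymphocytes, at 315, 312, 357 and 159 CPM; and Pnpla2, the first lipase of triglyceride breakdown, was near even, at 71.5, 73.3, 49.1 and 54.8 CPM overall. Of the brown-fat list Prdm16 (72.7, 45, 56.7 and 68.5 CPM), Fabp3 (60.2, 54.6, 35.9 and 40.2) and Dio2 (10.5, 18.8, 9.19 and 10.1) had many UMIs where Ucp1 had few. Sgk1 (308, 285, 276 and 311 CPM) and Aqp1 (99.7, 135, 158 and 96.9) led the capillary list, Fabp5 (50.1, 99.5, 210 and 46.5) and Acadl (58.5, 53.5, 66.8 and 78.5) the PPAR targets, with Lpl (39.5, 80.8, 70.0 and 22.8) and Plin2 (27.5, 44.1, 71.7 and 36.4). Klf4 (712, 647, 360 and 400), Cebpb (183, 299, 239 and 298), Ebf1 (295, 339, 175 and 201) and Cebpd (183, 187, 308 and 212) led the progenitor list.

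Genes with the most similar pattern over 23 class-by-library sums, among 13915 genes with 200 UMIs or more, were ranked by Pearson's r of log2(CPM + 10); the sums share libraries, depth and free RNA. For Fabp4 these were Klhl4 (0.90), Gpihbp1 (0.89), Tie1 (0.88), a receptor of endothelium, and C1qtnf9 (0.88). For Pparg they were Arap3 (0.88), Afap1l1 (0.83), Ednrb (0.82), the endothelin receptor of endothelium, and F11r (0.82). For Adipoq they were Vtn (0.86), Car3 (0.84), Ackr1 (0.78) and Tube1 (0.75), and for Cfd Esr1 (0.85), Car3 (0.82), Gm37800 (0.76) and Hist1h2bh (0.76). Fabp4 and Pparg thus sat with genes of endothelium, and Adipoq and Cfd shared only Car3 among their 4, at levels where a few barcodes set the sums.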

How the data were processed

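The authors deposited 1 filtered count matrix per library, whole-number UMI counts per gene and barcode on mm10, made with Cell Ranger 6.0.1 (normal diet) and 6.1.2 (western diet) per the file headers; the submitters' processing notes name Cell Ranger 6.1.2 and Seurat 4.1.0. The deposited counts were used unchanged. No doublets were removed beyond any step of the authors; a doublet caller (scanpy 1.11.5) served as an alternative. UMIs were summed per library and class and given as CPM with exact Poisson intervals, and ratios with exact binomial intervals after adding 0.5 UMIs (numpy 2.4.6, scipy 1.17.1, pandas 2.3.3, Python 3.11.15; figures in matplotlib 3.10.9). A value of 0 was limited by 3 counts. Library totals were 50662515 to 67450979 UMIs, which bounds the rare genes. Members and lists were chosen with earlier results of these data known. All 8 members are named. Of each of 5 lists the 4 genes with most UMIs are named; other names were added after their values were seen. Alternatives were other UMI and mitochondrial limits, CPM or per-barcode scaling, B or T cells alone as reference, and removal of adipocyte-rich, multi-rule, called-doublet or, chosen after seeing the data, shared barcodes and endothelial barcodes without capillary genes. The labels do not say that reads were counted by strand, so whether antisense reads entered the Pparg count could not be checked from them. Its antisense partner, Gm44079, is listed in the matrices as a gene of its own.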

Additional observations from a re-analysis of the deposited data

Results flagged for a closer look

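LysM-DKO over WT ratios (log2) had opposite signs on normal and western diet for Fabp4 over all kept barcodes (1.07 and -0.07), in fibroblasts (2.19 and -1.53) and in smooth muscle (1.01 and -0.31), and for Pparg over all kept barcodes (0.70 and -0.83) and in smooth muscle (0.90 and -0.94). Of the 1519 Fabp4 UMIs of fibroblasts in the LysM-DKO normal-diet library, 787 (51.8%) lay in 2 adipocyte-rich barcodes, and 785 in 1 of these. The fibroblast value of 2.19 thus rests largely on 1 barcode. With 1 library per group the difference was not tested. Counted per barcode, the western-diet values were 0.78 for Fabp4 over all, 0.58 for Fabp4 in smooth muscle and 0.02 for Pparg over all.

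Some genes stood higher in barcodes outside the filters than in kept ones. In barcodes under 1000 UMIs Fabp4 was at 802.2 CPM against 462 in the WT and 1137 against 969 in the LysM-DKO normal-diet library, and Pparg at 13.02 against 5.35 in the WT one. In the LysM-DKO normal-diet library Cfd was at 52.07 CPM over 10% mitochondrial UMIs and 49.89 under 1000 UMIs, against 19.8, where 1 excluded barcode held 369 of its UMIs. Retn was at 6.142 and 6.109 against 2.38, with 41 of the 67 UMIs behind the former in that same barcode, and Ucp1 at 10.54 and 19.85 against 5.48. Ucp1 was at 9.068 CPM over 10% mitochondrial UMIs against 3.12 in the WT normal-diet library.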

How the results depend on the processing

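Of 1693 values under alternatives for 182 results, 1446 stayed within counting error of the reported one 237 moved further and 10 reversed; for those printed here the cause was not tested. No paired analysis was possible because each group has 1 library. The log2 ratio of endothelial Fabp4 over lymphocytes (3.72, 4.21, 3.12 and 4.98) became 6.37, 5.83 and 6.21 in the first 3 libraries without barcodes meeting at least 2 rules, 4.54, 4.52 and 4.88 per barcode, 4.57, 4.31 and 4.46 with T cells as reference, 3.50 and 2.70 with B cells in the WT and WT/ApoE-/- libraries, 4.41 and 4.36 without called doublets on normal diet, and 3.53 with at least 2000 UMIs in the WT normal-diet library; the last library's value stayed within its wide counting error. Endothelial Fabp4 in LysM-DKO over WT (1.04) became 1.15 with at least 2000 UMIs, 0.69 without barcodes meeting at least 2 rules, 0.78 per barcode and 0.94 in capillary barcodes on normal diet, and on western diet (0.46) 0.55, 1.65, 0.37 with up to 20% mitochondrial UMIs, and 1.05 in capillary barcodes. Without the adipocyte-rich barcodes the ratio of the summed adipocyte genes went from 2.67 to 1.56. Those barcodes were chosen by the same genes, which fixed the direction of this change. Without barcodes meeting at least 2 rules, members called in endothelium went from 4 to 2 (WT normal diet) and from 2 to 1 (WT/ApoE-/-). Reversed per barcode were, in LysM-DKO over WT on western diet, Fabp4 over all (0.78) and in smooth muscle (0.58) and Pparg over all (0.02), and smooth muscle Fabp4 in WT between diets (-0.33). Against lymphocytes fibroblast Fabp4 reversed to 0.07 and 0.09 in the WT normal-diet library (without barcodes meeting at least 2 rules; T cells) and to -0.16 in the LysM-DKO normal-diet library without adipocyte-rich barcodes, fibroblast Adipoq there to -0.04 and endothelial Ucp1 in WT between diets to 0.43 without barcodes meeting at least 2 rules, and smooth muscle Retn to 0.23 with up to 20% mitochondrial UMIs. Of the reversed values, Pparg per barcode (-0.26 to 0.29) and fibroblast Fabp4 in the WT normal-diet library (-0.27 to 0.41 and -0.25 to 0.45) have intervals that span 0. So do fibroblast Adipoq (-2.86 to 2.47), endothelial Ucp1 (-3.35 to 4.22) and smooth muscle Retn (-0.53 to 1.14). The direction of these values is undetermined. Depth limits the rare genes most: Plin1 had 2 UMIs in each of 3 libraries.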
